A study of Mus musculus with 6 samples.

Results

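The 10 genes described here encode enzymes and 1 helper protein that make eicosanoids or break down platelet-activating factor (PAF). They were taken by gene name from the 24341 genes of the deposited table. The set is Alox5, Alox5ap, Ltc4s and Lta4h of the leukotriene branch, Ptgs1, Ptgs2, Ptges and Tbxas1 of the cyclooxygenase branch, and the phospholipases Pla2g4a and Pla2g7. RNA came from lavage cells of unchallenged C57BL/6 female mice aged 6 to 10 weeks. By the paper nearly all of these cells were alveolar macrophages (AMs), the resident macrophages of the lung airspaces, and it describes no sorting step. Values given for AMs below are those of the lavage cells as a whole. AMs of CD44+/+ mice were compared with AMs of CD44-/- mice that lack CD44, a receptor for hyaluronan. There were 3 samples per genotype, each pooled from the lavage of 4, 2 or 2 mice, so replicates are pools and every p-value below measures only the spread between them. All levels are FPKM, fragment counts scaled to transcript length and library size, so levels of different genes can be set side by side per length.

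Eicosanoids are short-lived lipid signals made from arachidonic acid. Cytosolic phospholipase A2 frees arachidonic acid from membranes, and 5-lipoxygenase with its helper FLAP turns it into leukotriene A4, while the cyclooxygenases turn it into prostaglandin H2. Terminal enzymes then decide the product, which is leukotriene B4 or C4 in one branch and prostaglandin E2 or thromboxane in the other. PAF is a phospholipid signal that the secreted enzyme encoded by Pla2g7 inactivates, and the same enzyme cuts oxidized phospholipids. AMs are known as producers of leukotrienes and thromboxane.

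The targeted gene and AM genes were checked first. Levels of Cd44 were 540, 535 and 527 FPKM in CD44+/+ and 54.7, 54.5 and 51.4 FPKM in CD44-/- AMs. Siglecf, which encodes the AM surface lectin Siglec F, ran from 243 to 268 FPKM over all 6 samples, and 14 AM markers summed to 16999 to 19424 FPKM in CD44+/+ and 16129 to 20329 FPKM in CD44-/- samples, most of it Chil3 (10300 to 14200 FPKM). Of these markers Krt79 (203 to 225 against 265 to 314 FPKM) and Mrc1 (493 to 510 against 524 to 535 FPKM) were lower and Itgax (466 to 495 against 435 to 460 FPKM) was higher in CD44-/- samples without overlap. Sums of FPKM over all genes lay between 487911 and 504192. Read totals were not analysed here and the depth is unknown in absolute terms, but the commonest ratio between low values put the depth of each sample at 0.816 to 1.05 of that of CD44+/+ replicate 1. Of 10800 genes that averaged 0.5 FPKM or more and were compared with limma on log2(FPKM + 0.1), 0.111% passed an adjusted p of 0.05, 7.69% had an unadjusted p under 0.05, and 11.6% had no overlap between genotypes. Of those same 10800 genes 6.75% were higher without overlap in CD44-/- AMs and 4.88% were lower without overlap.

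The stretch before the start of transcription is shown for 3 genes. Alox5 and Ptgs1 begin the leukotriene and the prostanoid branch and were expressed at very different levels, and Ptges was lower in CD44-/- AMs without overlap. Each window holds the 250 bases before the RefSeq start (build GRCm38.p6), 5′ to 3′ on the strand of the gene, and none overlaps an annotated exon of GENCODE vM21. The Ptges window lies inside the gene as GENCODE draws it, in an intron of a longer transcript. Capitals mark a GC box (GGGCGG, the letters that Sp1-type factors bind) or an ETS core (AGGAAG, the letters at the centre of sites for PU.1-type factors), searched on both strands.

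Alox5, chr6:116461179-116461428, minus strand: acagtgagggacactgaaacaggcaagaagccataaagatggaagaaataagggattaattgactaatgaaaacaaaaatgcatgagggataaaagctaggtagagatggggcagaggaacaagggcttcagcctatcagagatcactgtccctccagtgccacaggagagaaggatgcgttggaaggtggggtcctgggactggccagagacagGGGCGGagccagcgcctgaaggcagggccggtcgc
Ptgs1, chr2:36230176-36230425, plus strand: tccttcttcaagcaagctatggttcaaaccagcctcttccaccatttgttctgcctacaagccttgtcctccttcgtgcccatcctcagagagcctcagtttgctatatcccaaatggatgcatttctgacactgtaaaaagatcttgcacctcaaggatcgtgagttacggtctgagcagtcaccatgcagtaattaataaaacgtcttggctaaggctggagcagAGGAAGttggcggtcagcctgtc
Ptges, chr2:30903298-30903547, minus strand: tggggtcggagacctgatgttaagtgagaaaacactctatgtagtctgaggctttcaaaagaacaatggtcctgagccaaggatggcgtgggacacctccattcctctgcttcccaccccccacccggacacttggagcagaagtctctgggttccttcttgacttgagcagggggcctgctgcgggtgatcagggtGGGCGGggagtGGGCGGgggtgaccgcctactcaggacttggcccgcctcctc

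The GC box of Alox5 began 35 bases before the start and the 2 of Ptges began 53 and 42 bases before it, whereas the ETS core of Ptgs1 began 23 bases before the start. Of 9 genes of the set with a window in the RefSeq table, 4 held a GC box, 5 an ETS core and 2 a TATA box (TATAAA). Among all 32851 windows 32.7% held a GC box, 29.5% an ETS core and 12.4% a TATA box. These matches describe the letters only.

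Genes of the leukotriene branch stood far above the cyclooxygenase genes Ptgs1 and Ptgs2 in level. Alox5ap was the highest of the set with a mean of 640 ± 37.4 FPKM (SD, n = 3) in CD44+/+ AMs. Its mean over the 6 samples was above 99.2% of all tested genes. Ltc4s, Alox5, Lta4h and Tbxas1 followed, each above at least 93.6% of tested genes in mean level over the 6 samples. Pla2g4a had an intermediate level, above 73.3% of tested genes. Ptgs1, Pla2g7 and Ptges stood only above 27.7%, 23.0% and 13.9% of tested genes, and Ptgs2 fell under the limit of 0.5 FPKM. In both genotypes the order began Alox5ap, Ltc4s, Alox5 and ended with Ptges and Ptgs2, and most neighbours in the order did not overlap between samples. Pla2g7 and Ptgs1 were the only neighbours whose values overlapped, in CD44+/+ AMs. Between the genotypes Lta4h and Tbxas1 changed places, and so did Pla2g7 and Ptgs1, which overlapped in CD44+/+ but not in CD44-/- AMs.

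**Figure D1:**
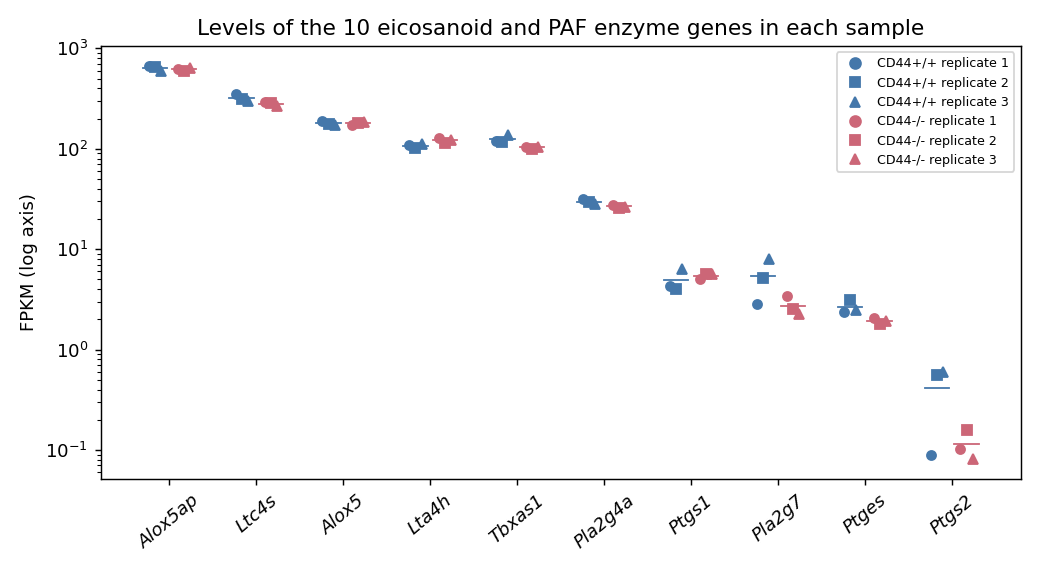
FPKM on a log axis for each of the 10 genes, with 1 point per sample (blue CD44+/+, red CD44-/-, marker shape by replicate number) and a bar at the mean of 3 samples. Alox5ap lies near 640 FPKM and Ptgs2 under 1 FPKM in every sample.

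Alox5, the gene of 5-lipoxygenase, lies on chromosome 6 of GRCm38 from 116410077 to 116461178. Its level was 190, 175 and 174 FPKM in CD44+/+ AMs and 174, 182 and 183 FPKM in CD44-/- AMs. The groups overlapped and their means were both 179.7 FPKM. The log2 fold change of CD44-/- over CD44+/+ AMs was 0.00081 with a 95% interval of -0.12 to 0.12 (limma, adjusted p = 0.9995), and its sign changed under other scalings. Alox5ap on chromosome 5 (149264767 to 149288153), which encodes FLAP, the protein that presents arachidonic acid to 5-lipoxygenase, had 674, 647 and 600 FPKM against 630, 601 and 633 FPKM, also with overlap. Its log2 fold change was -0.04 (95% interval -0.17 to 0.09, adjusted p = 0.966).

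The 2 enzymes that compete for leukotriene A4 differed in direction. Ltc4s, on chromosome 11 from 50236461 to 50238616, encodes the synthase that adds glutathione to make leukotriene C4. Its values were 350, 312 and 300 FPKM in CD44+/+ AMs and 294, 283 and 268 FPKM in CD44-/- AMs, without overlap, although CD44+/+ replicate 3 and CD44-/- replicate 1 lay close together. The log2 fold change of Ltc4s was -0.18 (standard error, SE, 0.07, 95% interval -0.34 to -0.03, adjusted p = 0.535). Lta4h, on chromosome 10 from 93453411 to 93484875, encodes the hydrolase that makes leukotriene B4. Its values were 109, 102 and 112 FPKM in CD44+/+ AMs and 129, 115 and 123 FPKM in CD44-/- AMs. Every CD44-/- sample was thus above every CD44+/+ sample, with a log2 fold change of 0.18 (SE 0.06, 95% interval 0.05 to 0.32, adjusted p = 0.476). Neither gene passed the adjusted threshold.

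Within a sample the ratio of 2 genes does not depend on scaling between samples. The ratio of Ltc4s to Lta4h was 3.21, 3.06 and 2.68 in CD44+/+ AMs and 2.28, 2.46 and 2.18 in CD44-/- AMs. It was lower in every CD44-/- sample, by 0.37 on the log2 scale. An exact two-sided permutation test gave p = 0.1, the smallest that 3 samples against 3 allow, and 0.5 after adjustment over the 5 ratios compared. With Ltc4s lower and Lta4h higher in every CD44-/- sample this ratio had to separate. Its test therefore adds nothing to the values of the 2 genes. Alox5ap was 3.45 to 3.70 times as high as Alox5 in CD44+/+ samples and 3.30 to 3.62 times in CD44-/- samples, with overlap (exact permutation test, p = 0.5, adjusted 0.5). The change of order between Tbxas1 and Lta4h was noticed after the values were seen. Tbxas1 was 1.09, 1.14 and 1.23 times Lta4h in the CD44+/+ samples and 0.814, 0.870 and 0.846 times Lta4h in the CD44-/- samples, so that the higher gene of the pair differed between genotypes in all 6 samples. Since the pair was chosen for this exchange, the ratio is given with no test.

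**Figure D2:**
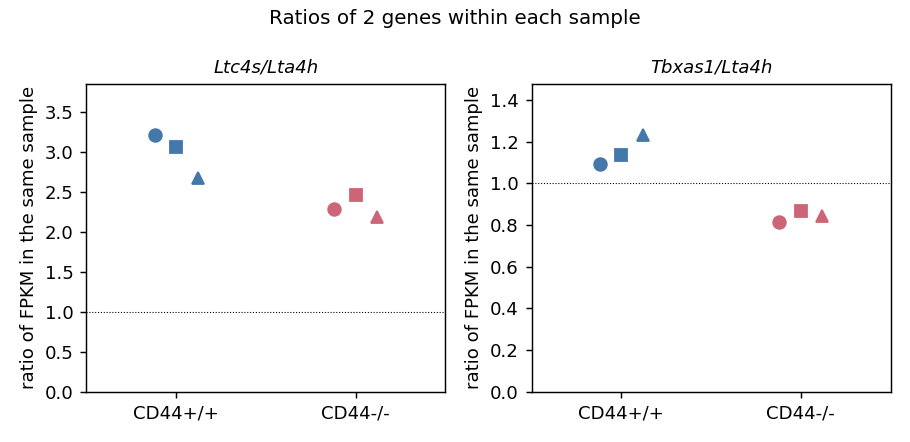
Ratio of FPKM values of 2 genes in the same sample, Ltc4s to Lta4h on the left and Tbxas1 to Lta4h on the right, with 1 point per sample (blue CD44+/+, red CD44-/-, marker shape by replicate number) and a dotted line at equal levels. Ltc4s/Lta4h spans 2.68 to 3.21 in CD44+/+ and 2.18 to 2.46 in CD44-/- AMs, and Tbxas1/Lta4h lies above 1 in the CD44+/+ and below 1 in the CD44-/- samples.

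Tbxas1 and Ptges, the terminal synthase genes of the cyclooxygenase branch within the set, were lower in each CD44-/- sample than in any CD44+/+ sample. Tbxas1, the thromboxane synthase gene, lies on chromosome 6 from 38875404 to 39084585. It had 119, 116 and 138 FPKM in CD44+/+ AMs and 105, 100 and 104 FPKM in CD44-/- AMs. CD44+/+ replicate 3 was the highest. The log2 fold change of Tbxas1 was -0.27 (SE 0.07, 95% interval -0.43 to -0.11), and it was -0.19 without that sample. With all samples the adjusted p of Tbxas1 by limma, 0.353, was the lowest of the set. Ptges encodes the inducible microsomal prostaglandin E synthase and lies on chromosome 2 from 30889471 to 30929863. It was low, with 2.38, 3.10 and 2.50 FPKM in CD44+/+ AMs and 2.08, 1.79 and 1.91 FPKM in CD44-/- AMs. Its CD44-/- mean was 72.4% of the CD44+/+ mean, a log2 fold change of -0.44 (SE 0.14, 95% interval -0.76 to -0.12, adjusted p = 0.470). The ratio of Ptges to Tbxas1 was 0.0181 to 0.0267 in CD44+/+ and 0.0179 to 0.0198 in CD44-/- samples, with overlap (exact permutation test, p = 0.4, adjusted 0.5).

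The cyclooxygenases themselves were low beside the leukotriene genes. Ptgs1, the constitutive cyclooxygenase gene, lies on chromosome 2 from 36230426 to 36252272 and had 4.33, 3.98 and 6.40 FPKM in CD44+/+ AMs and 5.03, 5.61 and 5.64 FPKM in CD44-/- AMs. CD44+/+ replicate 3 was above all CD44-/- samples and the other two below them, and the log2 fold change was 0.17 (95% interval -0.20 to 0.55, adjusted p = 0.927). Ptgs2, the inducible cyclooxygenase gene on chromosome 1 from 150100031 to 150108227, stood at 0.0888, 0.553 and 0.604 FPKM in CD44+/+ AMs and at 0.103, 0.157 and 0.0810 FPKM in CD44-/- AMs. It was higher in CD44+/+ replicates 2 and 3 than elsewhere, while CD44+/+ replicate 1 lay within the CD44-/- range (exact two-sided permutation test, p = 0.3). With a mean under 0.5 FPKM it was not among the tested genes, and when all 16227 genes with a value above 0 were fitted its log2 fold change was -1.07 (SE 0.52, adjusted p = 0.753). Of 10 neutrophil markers S100a8, S100a9, Retnlg and Ltf were also highest in these 2 samples, whereas Mmp8 and Cxcr2 were lowest there (22.6 and 22.3 FPKM of Mmp8 against 27.3 to 34.8 FPKM, and 2.62 and 3.71 FPKM of Cxcr2 against 3.88 to 4.56 FPKM) and Camp, Ngp, Elane and Mpo were listed at 0 in all samples. S100a9, a calcium-binding protein gene of neutrophils, had 0.493, 18.9 and 15.8 FPKM in CD44+/+ AMs and 1.80, 4.20 and 2.31 FPKM in CD44-/- AMs, and Retnlg had 1.02 and 1.54 FPKM in the same 2 CD44+/+ samples against at most 0.708 FPKM in the other 4. The part of neutrophils in the Ptgs2 values was not tested. Ptgs1 was 7.20 to 48.8 times as high as Ptgs2 in CD44+/+ and 35.7 to 69.6 times in CD44-/- samples (exact permutation test, p = 0.2, adjusted 0.5). This ratio rests on very low Ptgs2 values, and its log2 difference of 1.68 became 1.24 when 0.1 FPKM was added to both genes and ran from 1.12 to 2.50 with single samples left out.

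Pla2g4a encodes cytosolic phospholipase A2, which frees arachidonic acid, and lies on chromosome 1 from 149829618 to 149961290. Its values were 31.3, 29.3 and 28.0 FPKM in CD44+/+ AMs and 27.8, 25.7 and 26.5 FPKM in CD44-/- AMs. CD44+/+ replicate 3 was only just above CD44-/- replicate 1, and the log2 fold change was -0.15 (SE 0.06, 95% interval -0.29 to -0.0042, adjusted p = 0.642). Pla2g7, the PAF acetylhydrolase gene on chromosome 17 from 43568098 to 43612201, had 2.85, 5.21 and 8.04 FPKM in CD44+/+ AMs and 3.42, 2.53 and 2.25 FPKM in CD44-/- AMs. CD44+/+ replicate 1 lay among the CD44-/- samples, and the other CD44+/+ samples were above all of them. Of the tested genes of the set Pla2g7 had the log2 fold change farthest from 0, -0.85, and also the widest 95% interval, -1.60 to -0.11 (SE 0.33, adjusted p = 0.575). It moved to -1.24 without CD44+/+ replicate 1 (adjusted p = 0.105) and to -0.50 without CD44+/+ replicate 3 (adjusted p = 0.836). Pla2g7 is among the genes the study itself called on these samples, so its presence in the set is not independent of them. Relative to Pla2g4a in the same sample it stood at 0.0911, 0.178 and 0.287 in CD44+/+ AMs and at 0.123, 0.0985 and 0.0848 in CD44-/- AMs (exact two-sided permutation test, p = 0.3, adjusted 0.5).

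The profile of Pla2g7 over the 6 samples was most like that of Ckap4, Slc7a11 and Muc5b, with root-mean-square differences of 0.13, 0.22 and 0.23 on the log2 scale after each gene was centred on its mean. Slc7a11, a subunit of the cystine transporter, had 4.37, 8.99 and 16.1 FPKM in CD44+/+ AMs and 7.82, 6.07 and 4.97 FPKM in CD44-/- AMs. Here too CD44+/+ replicate 1 was low and replicate 3 highest. Muc5b, an airway mucin gene, and Ckap4, a membrane protein gene, reached at most 0.910 and 1.7 FPKM.

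**Figure D3:**
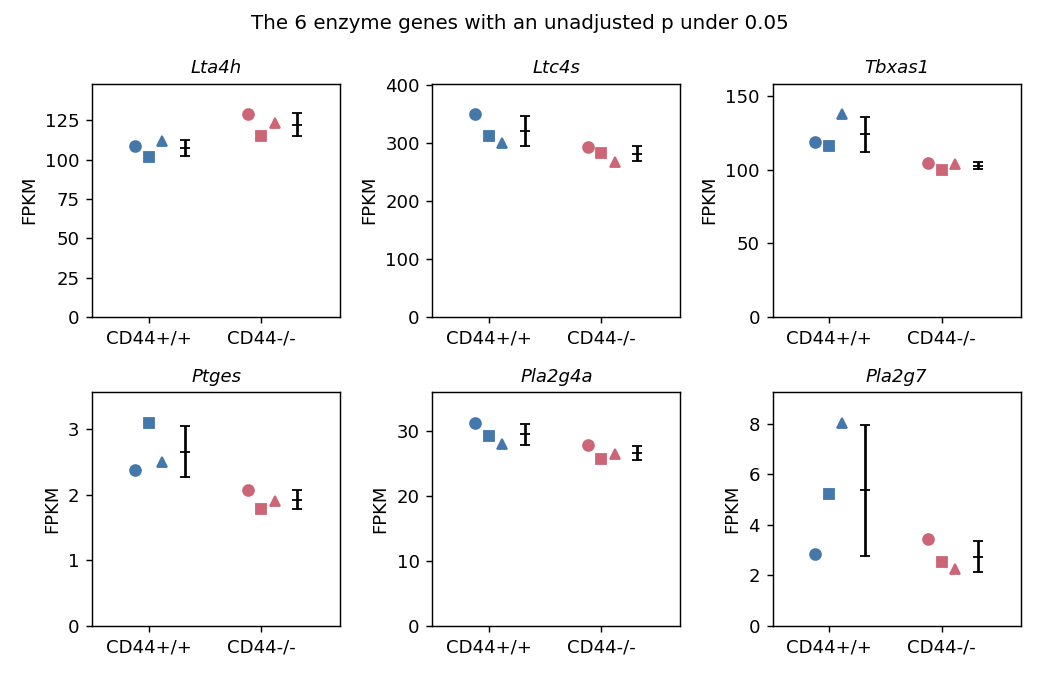
FPKM from 0 upwards for the 6 enzyme genes with an unadjusted p under 0.05, 1 point per sample (blue CD44+/+, red CD44-/-, marker shape by replicate number), with the mean and SD of 3 samples in black. Lta4h is higher and Ltc4s, Tbxas1, Ptges and Pla2g4a are lower in every CD44-/- sample, while the CD44+/+ values of Pla2g7 run from 2.85 to 8.04 FPKM.

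Of the 9 genes of the set that could be tested, 6 had a negative and 3 a positive log2 fold change, with a median of -0.15 against 0.01 over all tested genes. By limma 0 of the 9 passed an adjusted p of 0.05, and 6 had an unadjusted p under 0.05 (Lta4h higher and Ltc4s, Tbxas1, Ptges, Pla2g4a and Pla2g7 lower). In 5 genes the genotypes did not overlap, 1 of them higher and 4 lower. The background shares are 7.69% for the unadjusted p, 6.75% for higher and 4.88% for lower without overlap. In bulk RNA a smaller number of cells of a type and less RNA per cell cannot be told apart.

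The neighbouring genes of the pathway are a list of 72 genes with a row in the table, of which 42 were tested. These split evenly, 21 higher and 21 lower, with a median log2 fold change of 0.0012. None passed an adjusted p of 0.05 by limma, 7 had an unadjusted p under 0.05, and in 9 the genotypes did not overlap (6 higher, 3 lower). Over all tested genes these shares were 7.69% for the unadjusted p and 11.6% without overlap, 6.75% higher and 4.88% lower. A further 10 genes were listed at 0 in all 6 samples, among them the synthase gene Ptgds and the prostaglandin D2 receptor gene Ptgdr2.

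Of 6 tested genes for other prostanoid synthases, Hpgds stood apart. It encodes the haematopoietic prostaglandin D synthase and had 3.02, 2.96 and 2.17 FPKM in CD44+/+ AMs and 4.56, 4.10 and 4.08 FPKM in CD44-/- AMs. Every CD44-/- value was higher, with a log2 fold change of 0.64 (SE 0.14, adjusted p = 0.237). Mast cells also express Hpgds, and the 8 mast cell and basophil markers summed to at most 0.232 FPKM in CD44+/+ and 0.300 FPKM in CD44-/- samples. Akr1b3, an aldo-keto reductase gene, was the most abundant of this group at 61.9 ± 3.09 FPKM (SD, n = 3) and 66.6 ± 7.01 FPKM (SD, n = 3), with overlap.

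Of the genes for transport and inactivation, Ephx1 had the lowest adjusted p of the pathway. It encodes microsomal epoxide hydrolase and had 7.71, 6.45 and 6.82 FPKM in CD44+/+ AMs and 9.72, 9.94 and 9.50 FPKM in CD44-/- AMs. The log2 fold change of Ephx1 was 0.47 (SE 0.08, adjusted p = 0.126), and of the alternatives run it passed only without CD44+/+ replicate 1 (adjusted p = 0.0445). Among 6 tested genes for leukotriene export and conversion, Cyp4f18, a hydroxylase of leukotriene B4, was lower without overlap with 71.9, 68.6 and 73.6 FPKM in CD44+/+ and 60.5, 62.7 and 68.1 FPKM in CD44-/- AMs (log2 fold change -0.16, adjusted p = 0.532). Dpep2, a dipeptidase gene for leukotriene D4, and Mgst3, a microsomal glutathione transferase gene, overlapped between genotypes at means of 67.0 to 72.6 FPKM and of 159.3 to 159.7 FPKM. Of the other lipoxygenases only Alox15 and Aloxe3 were high enough to be tested. Alox15 had 0.658, 1.2 and 0.343 FPKM in CD44+/+ and 0.529, 0.416 and 0.335 FPKM in CD44-/- AMs, with overlap (log2 fold change -0.54, adjusted p = 0.867). With single samples left out its log2 fold change ran from -0.93 to -0.15. Aloxe3, an epidermis-type lipoxygenase, had 5.32, 5.63 and 4.87 FPKM in CD44+/+ and 6.13, 6.72 and 6.92 FPKM in CD44-/- AMs, without overlap (log2 fold change 0.32, adjusted p = 0.385).

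All 9 genes of PAF synthesis and hydrolysis outside the set were tested, and 3 lay higher without overlap in CD44-/- AMs, against 6.75% of all tested genes. Of the 9 log2 fold changes 4 were positive and 5 negative, with a median of -0.0030. Lpcat1, a lysophosphatidylcholine acyltransferase of surfactant and PAF synthesis, had 3.05, 2.69 and 3.55 FPKM against 4.51, 3.81 and 3.71 FPKM (log2 fold change 0.37, adjusted p = 0.532). Lpcat1 is also abundant in alveolar type 2 cells, whose 6 markers summed to 60.9 to 74.8 FPKM in CD44+/+ and 63.7 to 142 FPKM in CD44-/- samples. Napsa made up 47.3 to 61.7 FPKM of that sum, and the surfactant protein gene Sftpb was higher without overlap in CD44-/- samples (2.32 to 6.53 FPKM against 1.26 to 2.13 FPKM), while the other 5 markers overlapped. Sftpb and Sftpc were highest in CD44-/- replicate 3 (6.53 and 74.2 FPKM), which had the lowest Lpcat1 of the CD44-/- samples. The part of type 2 cells in the Lpcat1 values was not tested. Chpt1, a cholinephosphotransferase, had 17.1, 15.6 and 15.6 FPKM against 17.9, 20.0 and 19.4 FPKM (log2 fold change 0.24, adjusted p = 0.383). Lpcat4 differed by 0.12 on the log2 scale (adjusted p = 0.827). The related enzyme gene Cept1 overlapped between genotypes at 42.5 ± 1.80 FPKM (SD, n = 3) and 40.6 ± 1.88 FPKM (SD, n = 3).

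Of 16 receptor genes 10 were too low to be tested, among them Cysltr2, a cysteinyl leukotriene receptor gene (0.070 to 0.183 FPKM in CD44+/+ and 0 to 0.0341 FPKM in CD44-/- samples). Fpr2, a formyl peptide receptor that also binds lipoxin A4, was the most abundant, with 181, 203 and 187 FPKM in CD44+/+ AMs and 167, 142 and 146 FPKM in CD44-/- AMs. Its values did not overlap, with a log2 fold change of -0.33 (SE 0.07, adjusted p = 0.237), and it shares sequence and an annotated locus with Fpr3, so reads may be split between them. Among genes that free or rebind arachidonic acid, Acsl4, the acyl-CoA synthetase that prefers it, had 17.7, 19.0 and 20.2 FPKM against 17.2, 17.0 and 17.3 FPKM (log2 fold change -0.14, adjusted p = 0.678). Pla2g15, a lysosomal phospholipase A2, and Lpcat3, which puts arachidonic acid back into phospholipids, overlapped between genotypes at means of 245 to 260.0 FPKM and of 70.9 to 72.9 FPKM.

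**Figure D4:**
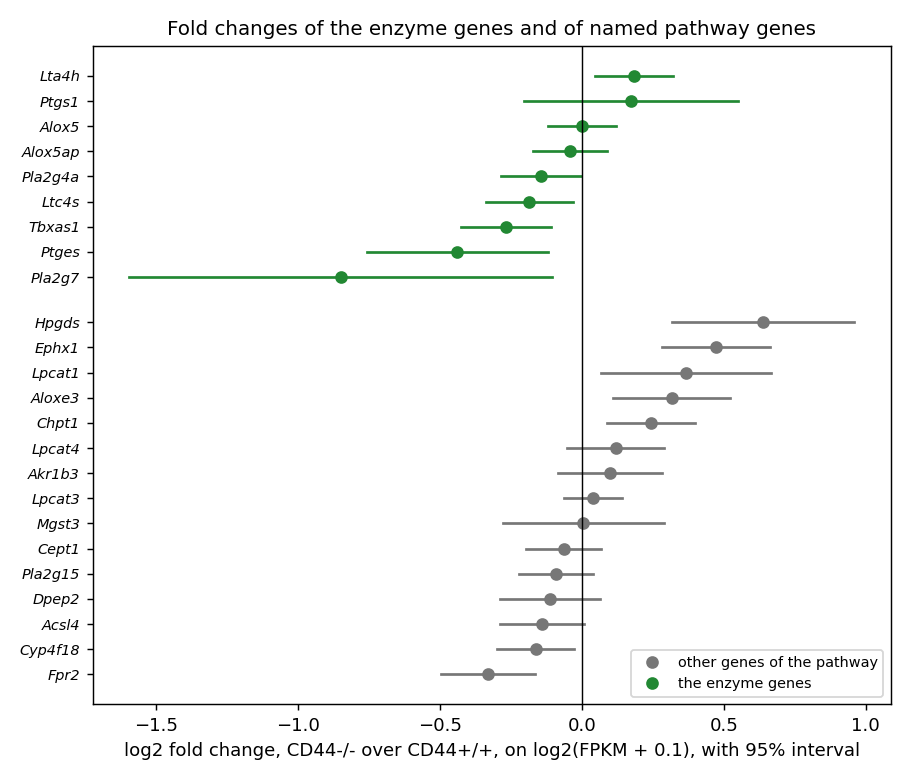
Log2 fold change of CD44-/- over CD44+/+ AMs on the scale log2(FPKM + 0.1) with its 95% interval from limma, for the 9 tested genes of the set (green) and 15 other genes of the pathway (grey), n = 3 per genotype. Pla2g7 has the lowest value, -0.85, and Hpgds the highest, 0.64, and none of these genes passed an adjusted p of 0.05.

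Marker sums of other cell types were low or overlapped between genotypes, except that of the monocyte list. The 4 eosinophil markers summed to at most 0.0326 FPKM in any sample, and of the 8 platelet markers 6 stayed under 0.1 FPKM, with Pf4 giving most of the sum of 1.86 to 4.78 FPKM. Neutrophil markers summed to 79.5 to 177 FPKM in CD44+/+ and 84.9 to 98.5 FPKM in CD44-/- samples. Lymphocyte markers (278 to 312 and 294 to 317 FPKM, nearly all Cd2), airway secretory markers (811 to 1333 and 620 to 1044 FPKM) and erythroid markers (2.12 to 17.3 and 2.89 to 56.5 FPKM) also overlapped. Only the monocyte list was lower without overlap in CD44-/- samples, 242 to 314 against 325 to 446 FPKM, and Fn1, which AMs express too, made up most of it (221 to 292 against 305 to 428 FPKM), while Ly6c2 stayed at or under 0.263 FPKM. Of the same list Ace was higher without overlap in CD44-/- samples (15.4 to 15.7 FPKM against 13.2 to 14.1 FPKM), and Ccr2 ran from 4.31 to 4.79 FPKM in CD44+/+ and from 4.43 to 5.67 FPKM in CD44-/- samples. The part of monocytes in the values above was not tested.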

How the data were processed

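RNA of lavage cells of female mice, 3 CD44+/+ and 3 CD44-/- samples, was analysed, and no sorting of AMs is described. The authors aligned reads to mm10 with STAR, and FPKM values from Cufflinks were deposited for 24341 genes, which carry the authors' scaling for depth and length. Libraries were made with a stranded kit, but the gene annotation and the strand setting of the quantification are not given in the sources used here. Opposite-strand genes overlap Tbxas1 (Hipk2), Alox5ap, Ltc4s, Ptgs1, Pla2g4a and Pla2g7. Values were read by gene identifier, since name and position columns follow another order (0 rows match). The deposited Cuffdiff fold changes and p-values and mean columns were not used. Rapgef6 lacked 1 value and was left out.

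Genes averaging 0.5 FPKM or more were compared on log2(FPKM + 0.1), which understates changes of low genes, in R 4.3.3 with limma 3.58.1 (lmFit, eBayes with intensity trend, two-sided, Benjamini-Hochberg over all genes tested), after the step was tested on simulated data. Exact permutation tests were used for single genes and ratios. The genes and lists were chosen with earlier results of these data known. Named were all 10 genes of the set, tested pathway genes without overlap, the 8 highest pathway genes, and the 3 profiles nearest to Pla2g7. Ptgds, Ptgdr2, Alox15, Cysltr2 and the marker genes named were added after their values were seen. Deviations from the group means correlated at 0.212, 0.132 and 0.211 between same-numbered samples of the genotypes, across genes, so the replicate number was taken to pair samples in the replicate block. This pairing comes from the data only. Alternatives were a pseudocount of 1, no filter, median-ratio scaling, quantile normalization, the replicate block and leaving out each sample. Positions are from GENCODE vM21 (GRCm38) and promoter windows from RefSeq (GRCm38.p6, 9 of 10 genes matched).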

Additional observations from a re-analysis of the deposited data

How the results depend on the processing

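With 3 pools per genotype no exact two-sided p under 0.1 was possible, and read depth is unknown. Under 11 alternatives for each of 9 tested genes of the set, 93 of 99 values kept their sign and none passed an adjusted p of 0.05. The other 6 were of Alox5, whose log2 fold change was -0.01387 after median-ratio scaling, -0.0164 after quantile normalization, and -0.02171 to 0.04171 with single samples left out. Part of the kept signs was fixed beforehand. Dropping the filter or adding the replicate block leaves a fold change as it is. In genes without overlap no left-out sample and no pseudocount can turn the sign. Of all genes, 12 passed, against 7 with no filter (16227 genes) and 6 to 36 with single samples left out. The 36 came without CD44+/+ replicate 1, the 22 without CD44-/- replicate 1, the 7 without CD44+/+ replicate 2 and the 6 without CD44-/- replicate 2. The cause was not tested. Of the pathway genes 0 to 1 passed with samples left out, the 1 being Ephx1 without CD44+/+ replicate 1. With the replicate block 9 genes passed, and no call of the set or of the pathway changed. Median-ratio scaling moved the median log2 fold change of all genes from 0.013 to -0.0014. The 5 planned ratios kept their sign in all alternatives run, as did Tbxas1/Lta4h, a ratio and alternatives added after the data were seen. The replicate block leaves the difference of a ratio as it is. Ltc4s/Lta4h and Tbxas1/Lta4h, which did not overlap, could not turn with a sample left out.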
